A study of Homo sapiens with 58 samples.

Results

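MGMT and the mismatch repair genes MSH3, MSH6, PMS1 and PMS2 were followed across 58 human cell lines, all labelled as breast cancer, with 1 array per line. The 5 genes were chosen by symbol from the 19798 genes that have a probe set naming a single gene, and for each the brightest on average of its single-gene probe sets was used, 11 probe sets for the 5 genes of 35184 in all. The lines were grown untreated as the vendor recommended, and biotin-labelled RNA made with a NuGEN amplification was read on a custom Affymetrix array. The deposited values are log2 intensities, so a difference of 1 is a factor of 2 in intensity. The labels give no subtype, genotype or replicate, so every value below is a description of single lines and no test between groups was made. The number of arrays limits the precision, and the spread between arrays of 1 line is not known.

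Mismatch repair removes base mispairs and small loops that polymerases leave behind. MutS homologs recognise the fault, MSH6 as part of the complex for mispairs and MSH3 as part of the complex for loops, and MutL homologs act next, PMS2 as the nicking enzyme of its complex and PMS1 in a complex whose role is less clear. MGMT works alone: it takes an alkyl group off guanine onto its own cysteine and is then degraded, and its loss by promoter methylation is known in several tumour types. Cells that lack MGMT keep the lesions made by alkylating drugs such as temozolomide, and mismatch repair turns those lesions into a lethal signal. The partner subunits of these complexes are not analysed here.

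Array medians lay between 5.37 and 5.58. The width of each array (the interquartile range of its genes' distances from their medians) was 0.45 to 0.64, with HS362T, MB157 and EFM192A the widest. A width can be larger on a poorer array and also in a line unlike the others. Background was set at 5.58, the 95th percentile of 616 probe sets for viruses on the same arrays, and a gene at or under it is called silent here. Of all genes, 14651 were above the array median in at least 3 of 50 units, and these are called detected. A unit is a line or the mean of a set of lines of reported common origin. All 5 genes were detected. The sets are AU565 with SKBR3, the EFM192 lines, MDAMB435S with M4A4 and NM2C5, the HMT3522 lines, MB157 with MDAMB157, and VP229 with VP267. By marker genes MB157 and MDAMB157 were unlike. Their mean epithelial marker levels were 11.66 and 6.06, and their mean fibroblast marker levels 5.25 and 10.86. Whether these 2 arrays hold cells of 1 origin was not tested. Of the lines used below, MDAMB435S, M4A4 and NM2C5 are reported to derive from melanoma and MT3 from the intestine, while HMT3522S1, MCF12A, MCF102A and SVCT are known as immortalised lines that did not come from a tumour. Fibroblast marker genes had a mean level of 12.76 to 12.93 in HS362T, HS605T, HS739T and HS579MG, called the 4 Hs lines, against 3.68 to 12.65 in the other 54 lines, the highest of which was HS578T.

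In 6 lines exactly 1 of the 5 genes was silent, and in each of them it was MGMT. No line had more than 1 silent member, and 52 had none. The silent lines were MDAMB361 at 4.05, NM2C5 at 4.49, UACC893 at 5.04, M4A4 at 5.08, MDAMB231 at 5.14 and MDAMB435S at 5.23. HS578T stood just above the threshold at 5.62, only 0.032 over it. MDAMB435S, M4A4 and NM2C5 share an origin, so the 6 silent lines stand for 4 origins. Of detected genes, 48.7% were at background in at least 1 line and 37.6% in at least 6, shares that hold many genes of low level. Among the 4166 detected genes with a median of at least 10, a limit chosen after the values of MGMT were seen, 9.72% were at background in at least 1 line and 2.21% in at least 6.

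**Figure D1:**
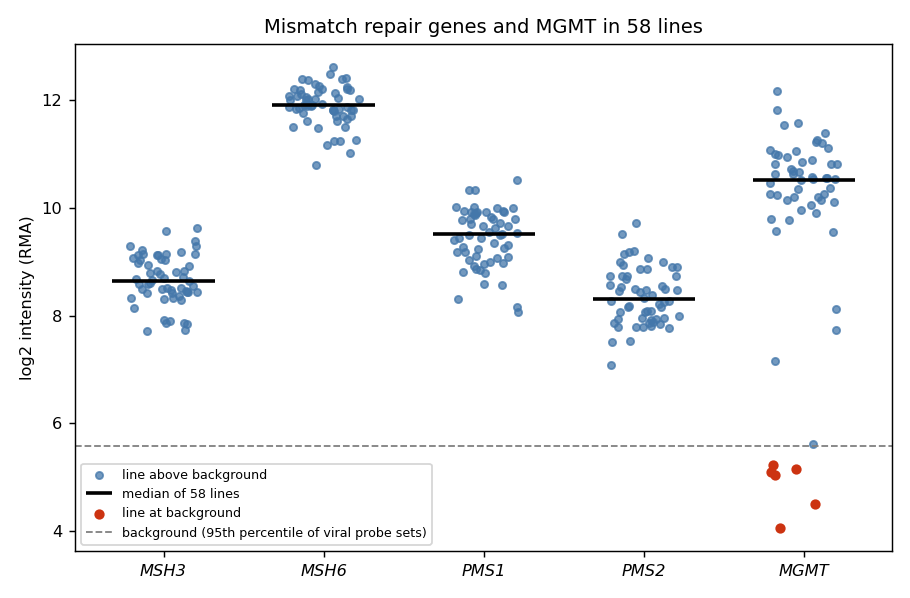
Log2 intensity of each gene (vertical axis) in 58 lines (1 point per line, spread sideways for legibility), with the median as a bar and background as a dashed line. MGMT alone has points at background, 6 of them, while the lowest point of the other 4 genes is 7.08 (levels are not comparable between genes, which have different probes).

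The levels of MGMT fell into separate ranges. Its level was 4.05 in the lowest line, 10.52 at the median and 12.17 in the highest, HCC1937, followed by MDAMB436 at 11.81 and MDAMB175VII at 11.57. The largest step between neighbours in the order was 1.55, between HS578T at 5.62 and MT3 at 7.16, and it left 7 lines below and 51 above. A step at least as large was found in 11.2% of detected genes. Above it stood 3 lines of middle level, MT3 at 7.16, SW527 at 7.74 and HCC1954 at 8.13, before a further step of 1.42 to MDAMB157 at 9.55. Lower level in all cells and loss in some of the cells of a line cannot be told apart. The other 48 lines lay between 9.55 and 12.17, with an SD of 0.57.

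These 10 lines were low by a rule of more than 3 scaled median absolute deviations and at least 1.5 below the gene's median. Of detected genes, many of which have low levels and less room to fall, 20.3% were low in at least 1 line, but 0.553% in at least 10. The 10 lines stand for 8 origins. No line was high by the same distance above the median, which occurred in 24% of detected genes. In the silent lines MGMT was 39.2-fold (MDAMB435S) to 88.6-fold (MDAMB361) under the median of all lines in intensity. Since those levels are background, the safer statement is that the median stood 30.7-fold above the background level. In MT3, SW527 and HCC1954, where it was measured above background, MGMT was 10.3-fold, 6.89-fold and 5.26-fold under the median. MGMT has 1 single-gene probe set, so no second probe set bears on these calls.

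**Figure D2:**
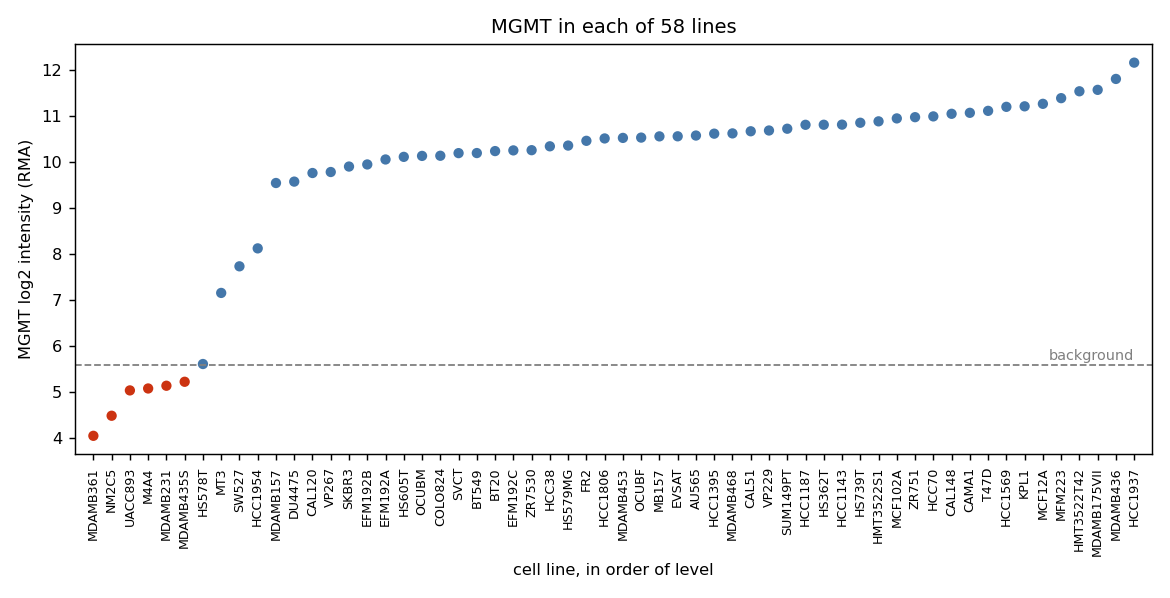
MGMT log2 intensity (vertical axis) in each of the 58 lines, ordered from low to high, with background as a dashed line. The 6 silent lines (red) and HS578T lie below a step of 1.55, MT3, SW527 and HCC1954 lie between 7.16 and 8.13, and the rest form a plateau from 9.55.

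The gene lies on chromosome 10, and its promoter is shown because its loss in other tumours is tied to methylation of CpG sites, which were not measured here. The 250 bases before the RefSeq start (GRCh38.p14, chr10:129466991-129467240, plus strand) hold 36 CpG sites, in capitals.
MGMT: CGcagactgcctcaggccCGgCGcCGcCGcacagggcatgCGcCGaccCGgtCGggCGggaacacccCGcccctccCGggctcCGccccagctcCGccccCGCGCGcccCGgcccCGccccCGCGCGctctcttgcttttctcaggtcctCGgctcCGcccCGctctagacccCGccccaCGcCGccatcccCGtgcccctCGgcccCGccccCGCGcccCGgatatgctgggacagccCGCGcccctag
With the 50 bases after the start included, the MGMT window held 45 CpG sites. That is more than 96.6% of 27303 promoters of that length, whose median was 14. PMS1 held 40 (percentile 92.6), MSH6 39 (91.5), MSH3 37 (88.9) and PMS2 24 (66.3).

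No set of reported common origin held both lines silent for MGMT and lines above background. MGMT was 4.49 in NM2C5, 5.08 in M4A4 and 5.23 in MDAMB435S, all silent. The EFM192 lines lay between 9.95 and 10.26, AU565 with SKBR3 between 9.91 and 10.58, and the HMT3522 lines between 10.89 and 11.54. VP229 and VP267 differed by 0.90 and MB157 and MDAMB157 by 1.01, with all 4 of these lines at or above 9.55. The SD of MGMT was 1.90 over units and 0.46 within sets, a ratio of 4.10, where the median ratio over detected genes was 1.60. The SD within sets was the largest of the 5 genes and close to the median of detected genes, 0.44, so the high ratio comes from the spread over units. Its SD over units exceeded that of 88.2% of detected genes, and 34.2% of them had an SD of at least 1.

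The silent lines did not share 1 cell identity by the marker lists. The 6 measured melanocyte markers had a mean level of 9.52 in MDAMB435S, 10.60 in M4A4 and 11.76 in NM2C5, and 6.81 or less in the other 4 lines below the step. The 7 epithelial markers had a mean level of 11.80 in MDAMB361 and 11.94 in UACC893, and between 5.35 and 7.80 in the other 5 lines below the step. HS578T had a mean fibroblast marker level of 12.65 with none of the 8 markers at background, while the 6 silent lines lay between 4.10 and 6.12, with 4 to 8 of these markers at background. The 4 Hs lines, with the highest mean fibroblast marker levels, had MGMT between 10.12 and 10.86, against 5.62 in HS578T. Of the intestinal markers, all 7 were above background in MT3, at a mean of 11.12, and none or 1 was above background in the 7 lines below the step. Blood markers had a mean level of at most 5.98 in those 7 lines, with 3 to 5 of the 5 markers at background. The part of these identities in the level of MGMT was not tested.

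The 5 nearest detected genes on either side of MGMT were read in the 7 lines below the step. Below their own medians were 8 of these 10 neighbours in UACC893, 7 in MDAMB361, 5 in NM2C5 and MDAMB435S, 4 in M4A4, and 3 in MDAMB231 and HS578T. Their median deviation was between -0.44 (UACC893) and 0.27 (MDAMB231). INSYN2A, CLRN3 and EBF3 had medians of 3.83, 3.13 and 5.08, under background, so a loss of these genes could not be seen. The phosphatase PTPRE, whose median was 6.98, was at background in 5 of the 7 lines and between 3.57 and 4.43 there, but at 8.67 in MDAMB435S and 9.85 in MDAMB231, and 19 of all 58 lines had it at background. The proliferation antigen MKI67, the nearest detected gene on one side, had r = 0.114 with MGMT over 50 units, and the transcription factor EBF3 on the other side 0.129. C10orf143 had the highest r of the 10, 0.338, and stood between 3.68 and 5.03 in the 6 silent lines, against 6.50 in HS578T and a median of 5.80 over all lines, itself close to background. It was at background in 25 of all 58 lines. Of the 20 genes closest to MGMT by r, 1 lay on chromosome 10, a count reached by 85.4% of detected genes. All correlations here are across lines read on the same kind of array and processed by the same method, and are given as descriptions.

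Since the levels of MGMT fall into separate groups, the value above the step is given beside the one over all 50 units. The genes with the highest r over 50 units were the lipid kinase DGKE (0.502), the pseudophosphatase STYX (0.4995), the chaperone HSPA2 (0.491), the zinc finger gene ZNF354C (0.472) and KRTCAP2 (0.456). Among the 45 units above the step the same 5 genes had r of -0.168, 0.137, 0.230, 0.351 and 0.198. The genes with the lowest r were the CDK5 activator CDK5R2 (-0.661), UNK (-0.576) and the protocadherin PCDHB11 (-0.499), with -0.174, -0.291 and -0.191 above the step. No detected gene reached r = 0.6 with MGMT over the 50 units, a share of 0%, and 0.00683% had -0.6 or less. Within the 45 units, OGFRL1 was closest with r = 0.684 (Spearman rho 0.513), then ZNF264 (0.628, rho 0.280) and the DNA translocase HLTF (0.613, rho 0.375). The lowest r there were those of ASB4 (-0.688, rho -0.167), ABHD12B (-0.677, rho -0.214) and LINC00261 (-0.658, rho -0.011). Over these 45 units 0.0341% of detected genes had r of at least 0.6 and 0.0614% had -0.6 or less. The 45 units still hold the lines of middle level, MT3 at 7.16, SW527 at 7.74 and HCC1954 at 8.13. The part of these lines in the r values, several of which had a much smaller rho, was not tested.

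Of 18 detected genes of a list of alkylation and base excision repair, which holds 20 genes, ALKBH3 varied most, with an SD of 1.72 over units. ALKBH3 is a demethylase that reverses alkylation of adenine and cytosine, mainly in single strands. It was silent in CAL51 at 3.90, ZR7530 at 3.98, HCC1569 at 4.63 and EVSAT at 4.70, and low in HCC70 at 7.39, with a median of 10.08. The 5 lines low in ALKBH3 and the 10 low in MGMT had no line in common, from which nothing is read since both sets are small. In the 4 lines silent for ALKBH3, MGMT stood at 10.26 to 11.20, and in the 6 lines silent for MGMT, ALKBH3 stood at 9.31 to 10.94. The most variable of the other genes of the list were the glycosylase NEIL3 (SD 0.83) and the demethylase ALKBH2 (SD 0.75). NEIL3, which removes damaged bases, was low in HS362T, EFM192A, MFM223 and VP229, and ALKBH2 had no low line. NEIL1 was at background in 22 lines with a median of 5.84. In all, 6 of the 18 genes were low in at least 1 line, or 33.3%, against 20.3% of detected genes, many of which have low levels and less room to fall.

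**Figure D3:**
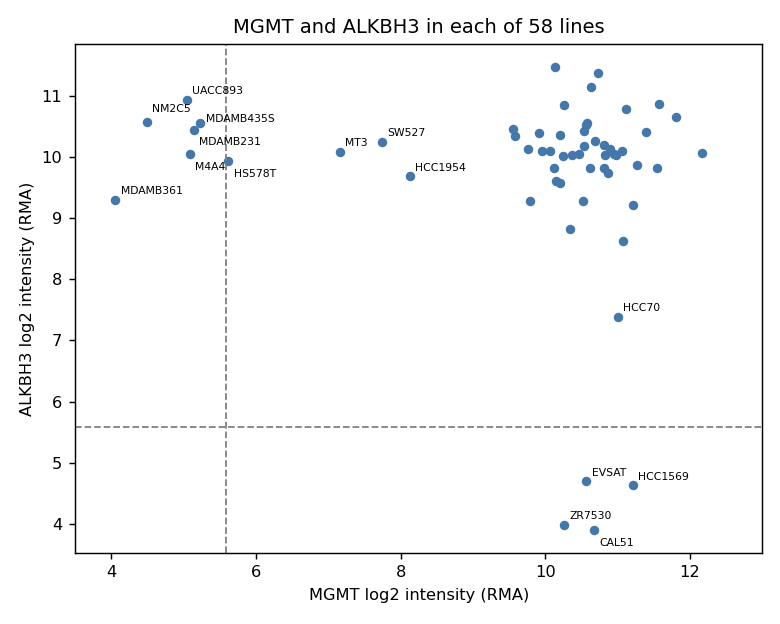
ALKBH3 (vertical axis) against MGMT (horizontal axis), log2 intensity, 1 point per line, background dashed on both axes. The 10 lines low in MGMT have ALKBH3 of 9.31 or more, and the 5 lines low in ALKBH3 have MGMT of 10.26 or more.

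MSH3, the MutS homolog for loops, ranged from 7.71 to 9.63 with a median of 8.65. HCC1143 had 9.63, HMT3522T42 9.57 and HCC1954 9.39 at the upper end. The largest step in its order, 0.24, set off 7 lines at the lower end, UACC893 at 7.71, MB157 at 7.73, OCUBF at 7.84, VP229 at 7.86, OCUBM at 7.87, HCC38 at 7.89 and HS578T at 7.91, from MDAMB157 at 8.15. None of them was low by the rule, and a step of this size was smaller than the median largest step of 0.55 over detected genes. The other MSH3 probe sets had UACC893 lowest too, and r of 0.958 and 0.913 with the chosen one over 58 lines.

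The genes closest to MSH3 lay on its own chromosome, 5. In order of r over 50 units they were the centrin CETN3 (0.635), the importin IPO11 (0.607), the nuclear kinase AK6 (0.604), the transcription factor BTF3 (0.582) and the kinase CDK7 (0.574), with starts between 7.16 and 18.2 Mb from that of MSH3. An r of at least 0.6 was reached by 3 genes, or 0.0205% of those tested. Of the 20 genes closest to MSH3, 12 lay on chromosome 5, which holds 4.56% of detected genes. At least as many of the 20 closest genes were on the own chromosome for 13.4% of detected genes. The median r with MSH3 was 0.152 for genes under 5 Mb away, 0.269 from 5 to 20 Mb and 0.053 beyond that, against 0.008 on other chromosomes. Among its 10 nearest detected neighbours, ZCCHC9 had the highest r, 0.505, and the median was 0.231. In UACC893, MB157 and OCUBM, 7 of these 10 neighbours were below their medians, with median deviations of -0.24, -0.16 and -0.32, while in VP229 3 were. Of all 10 neighbours in the 7 lines at the lower end, 1 was low, ZFYVE16 in MB157. The lowest r with MSH3 were those of LINC01535 (-0.527), ZNF582 (-0.511) and the coatomer gene COPG1 (-0.510).

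**Figure D4:**
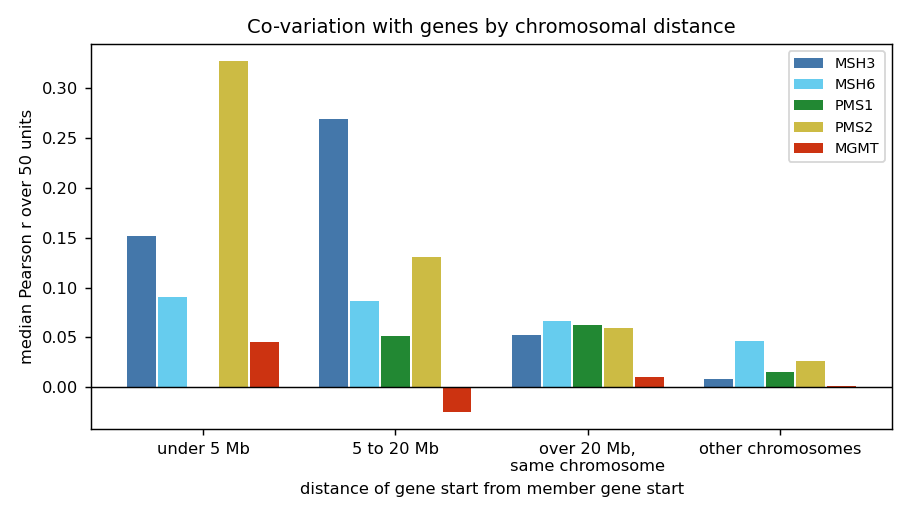
Median Pearson r over 50 units between each gene and detected genes at 3 distances on its chromosome and on other chromosomes (bars, vertical axis). MSH3 peaks at 0.269 between 5 and 20 Mb and PMS2 at 0.327 under 5 Mb, while MGMT stays between -0.025 and 0.045.

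MSH6, the MutS homolog for mispairs, had the smallest SD of the 5 chosen probe sets. It ranged from 10.79 to 12.62 with a median of 11.91, and its SD over units of 0.38 exceeded that of only 13.8% of detected genes. The 4 Hs lines were the lowest of all, HS362T at 10.79, HS605T at 11.03, HS739T at 11.16 and HS579MG at 11.24, followed by HCC38 and EFM192A, both at 11.25. The 4 Hs lines and the other 54, which began at 11.249 in HCC38 where HS579MG had 11.245, thus met without a gap. HS578T, the next highest in fibroblast markers, had MSH6 of 11.83. CAL148 at 12.62, COLO824 at 12.49 and MDAMB436 at 12.42 were highest. The second probe set, whose lowest line was also HS362T, had r = 0.978 with the first but an SD of 0.53. When the probe sets of each gene were averaged instead, the SD was 0.45 for MSH6, 0.44 for PMS1 and 0.46 for MSH3, so the order of these genes depends on the probe set.

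Over 50 units the genes closest to MSH6 were the chromatin assembly factor CHAF1B (r = 0.759), the transcription factor E2F2 (0.735), GPRIN1 (0.735), the clamp loader subunit RFC5 (0.732) and the splicing factor SRSF7 (0.717). An r of at least 0.6 was found for 0.696% of detected genes and of -0.6 or less for 0.287%. Apart from GPRIN1, these values were clearly lower without the 4 Hs lines. Over the remaining 46 units r was 0.549 for CHAF1B, 0.432 for E2F2, 0.664 for GPRIN1, 0.451 for RFC5 and 0.380 for SRSF7. The retinal gene PRPH2 (-0.705), the heart and limb factor TBX5 (-0.674) and LOC101929130 (-0.669) had the lowest r, and without the 4 Hs lines -0.302, -0.344 and -0.066. With a score of 11 proliferation genes, r was 0.637 over 50 units and 0.301 without the 4 Hs lines. The 4 Hs lines scored between -1.92 and -0.44 in log2 units, against -1.97 to 0.68 in the other lines. Of the 11 genes, 10 were low in at least 1 line, or 90.9%, against 20.3% of detected genes, many of which have low levels and less room to fall. The part of proliferation and of fibroblast identity in these levels was not tested. EFM192A and VP229, with scores of -1.97 and -1.87, had MSH6 of 11.25 and 11.49. Of its 20 closest genes, 2 lay on its own chromosome, 2, a count reached by 68.5% of detected genes, and the median r with its 10 neighbours was -0.018, or 0.225 without the 4 Hs lines. The nearest detected neighbour EPCAM, an epithelial adhesion gene, had r = 0.369. It was low in 19 of the 58 lines, among them all 4 Hs lines but also MDAMB436 and MDAMB157, which had MSH6 of 12.42 and 12.39.

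**Figure D5:**
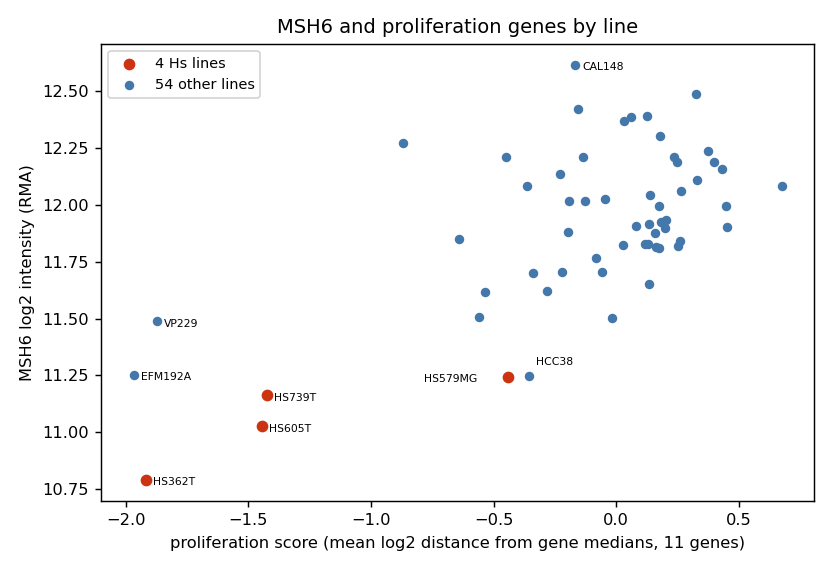
MSH6 log2 intensity (vertical axis) against the mean log2 distance of 11 proliferation genes from their medians (horizontal axis), 1 point per line, with the 4 Hs lines in red. The 4 Hs lines lie between 10.79 and 11.24, at scores of -1.92 to -0.44, and the other 54 lines from 11.25 to 12.62.

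PMS2, the nicking enzyme of the MutL group, ranged from 7.08 to 9.72 with a median of 8.30. HCC38 was lowest at 7.08, a step of 0.43 under ZR7530 and EFM192A at 7.51 and 7.52. HCC1806 at 9.72 and UACC893 at 9.51 were highest, then AU565 at 9.19. PMS2 has many near-identical pseudogene copies, and it cannot be said from these values how far its single probe set reads them too. The probe sets named for 5 copies had medians of 3.75 to 5.75, close to background or under it, and r between 0.028 and 0.321 with PMS2.

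Genes on chromosome 7 were the closest to PMS2. Its closest genes were the mitochondrial methyltransferase MRM2 (r = 0.656), the Integrator subunit INTS1 (0.622), BRAT1 (0.621), the lipase DAGLB (0.608) and the zinc finger gene ZNF316 (0.582), all within 4.50 Mb of it. Of its 20 closest genes, 19 lay on chromosome 7, which holds 4.70% of detected genes, and a count this high was reached by 2.86% of detected genes. At r of at least 0.6 there were 4 genes, or 0.0273%. All 10 nearest detected neighbours had a positive r, with a median of 0.488, led by the deubiquitinase USP42 (0.573) and the stress kinase EIF2AK1 (0.564). In HCC38, 8 of the 10 neighbours were below their medians, with a median deviation of -0.39, where that of PMS2 itself was -1.22. Over the 10 lines with the lowest PMS2 the count differed. All 10 were below in EFM192A, MB157 and EVSAT, 8 in CAL120, 7 in MFM223, 6 in FR2, and 4 in ZR7530, MDAMB175VII and HS578T. EFM192A and MB157 were among the 3 widest arrays. PMS2 was 7.52 in EFM192A, but 8.25 in EFM192B and 7.93 in EFM192C, which share its reported origin. Across 58 lines the Spearman rho between PMS2 and array width was -0.076. The part of array width in these counts was not tested.

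PMS1, the MutL homolog of less clear role, ranged from 8.06 in MB157 to 10.52 in COLO824 with a median of 9.51. HS362T at 8.16, MDAMB175VII at 8.30 and ZR7530 at 8.57 were the next lowest, and SUM149PT and SVCT, both at 10.33, the next highest. MB157, HS362T and EFM192A, the 3 widest arrays, had PMS1 of 8.06, 8.16 and 8.80, and across 58 lines the Spearman rho between PMS1 and array width was -0.423, the strongest of the 5 genes (-0.236 for MSH6, the next). The part of array quality, or of how far these lines differ from the others, in these low values was not tested. Of 4 probe sets, the second in level had r = 0.992 with the chosen one and HS362T lowest. The others had r of 0.435 and 0.005, with 12 and 58 lines at background, so the calls for PMS1 rest on the 2 brightest probe sets.

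PMS1 starts 111 bases from ORMDL1, a regulator of sphingolipid synthesis, and the genes point away from each other. The 110 bases between the starts (GRCh38.p14, chr2:189784340-189784449, plus strand) are shown because they are upstream of both genes, with the 13 CpG sites in capitals.
PMS1-ORMDL1: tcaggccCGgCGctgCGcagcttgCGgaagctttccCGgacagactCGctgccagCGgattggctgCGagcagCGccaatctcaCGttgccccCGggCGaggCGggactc
ORMDL1 had r = 0.447 with PMS1 over 50 units (Spearman rho 0.483), higher than 96.8% of detected genes. WDR75, a ribosome assembly gene 0.34 Mb away, was closest of all with r = 0.734, followed by genes elsewhere, the splicing factor PRPF38A (0.707), the origin recognition subunit ORC1 (0.683), the histone chaperone subunit SSRP1 (0.682) and the mitochondrial ribosomal gene MRPL37 (0.680). DHRSX (-0.593), the proton pump accessory gene ATP6AP2 (-0.590) and CRACR2A (-0.584) had the lowest r. An r of at least 0.6 was found for 0.191% of detected genes. Of the 20 closest genes 7 lay on chromosome 2, a count reached by 28.2% of detected genes, and the median r with the 10 neighbours was 0.133. With the proliferation score, PMS1 had r = 0.533, and 0.371 without the 4 Hs lines.

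No pair of members varied closely together. Of the 10 pairs, MSH6 with PMS1 had the highest r, 0.455 over 50 units (Spearman rho 0.299), then MSH6 with PMS2 (0.358, rho 0.299) and PMS1 with PMS2 (0.251, rho 0.198). Without the 4 Hs lines r was 0.246 for MSH6 with PMS1 and 0.332 for MSH6 with PMS2, which turns their order round. MSH3 had r of 0.190 with MSH6, 0.212 with PMS1 and 0.063 with PMS2. Above the step in MGMT, the r of MGMT with the other 4 genes lay between -0.162 for PMS1 and 0.108 for MSH6, over 45 units. In the 6 lines silent for MGMT, MSH3 was between 7.71 and 9.22, against a median of 8.65 over all lines. MSH6 was between 11.90 and 12.27, against a median of 11.91 over all lines, PMS1 between 8.59 and 9.44 against 9.51, and PMS2 between 7.89 and 9.51 against 8.30. UACC893 combined a silent MGMT with the lowest MSH3 of all lines and the second highest PMS2.

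HCC38 was at the low end for several mismatch repair genes together. It had the lowest PMS2 (7.08), the fifth lowest MSH6 (11.25) and the sixth lowest MSH3 (7.89), with PMS1 at 9.18, the 19th lowest, and MGMT at 10.35, the 26th lowest. In intensity PMS2 was 2.34-fold, MSH3 1.69-fold and MSH6 1.58-fold under the median of all lines. Averaged over the 4 mismatch repair genes, the deviation from the median was -0.75 in HS362T, -0.74 in HCC38, -0.65 in MB157 and -0.54 in both ZR7530 and MDAMB175VII. The array width of HCC38 was 0.55, inside the range of the others, while HS362T and MB157 were among the 3 widest arrays. At the upper end, HMT3522T42 stood 0.61 above, COLO824 0.53 and HCC1806 0.52.

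Other genes of mismatch repair come from a list of 19, of which 18 were detected. None of the 18 was at background in any line. That was so in at least 1 line for 48.7% of detected genes, and for 9.72% of those with a median of at least 10. The medians of the 18 lay between 7.72 and 12.66. Low in at least 1 line were 10, or 55.6%, against 20.3% of detected genes, many of which have low levels and less room to fall. HS362T was among the low lines for 8 of the 10. The largest SDs were those of the exonuclease EXO1 (0.89), low in HS362T, EFM192A, HS605T, VP229 and HS739T, of the polymerase delta subunit POLD4 (0.77), low in COLO824, and of the clamp loader subunit RFC4 (0.69), low in the same 5 lines as EXO1. The 5 lines low in EXO1 and RFC4 had the lowest proliferation scores of all lines, from -1.97 in EFM192A to -1.43 in HS739T. Of the detected proliferation genes, 90.9% were low in at least 1 line. The part of proliferation in the low calls of the mismatch repair list was not tested. PCNA, the sliding clamp, was low in 1 line, EFM192A, at 9.76 against a median of 11.97. EFM192A was among the 3 widest arrays. EFM192B and EFM192C, of the same reported origin, were not low in EXO1, RFC4, PCNA or NEIL3. The mean distance of the mismatch repair list from its medians was -0.98 in EFM192A, -0.10 in EFM192B and -0.11 in EFM192C. The part of the single array in the low calls of EFM192A was not tested. The meiotic MutS homolog MSH4 was at background in all 58 lines. The median r of the list was 0.518 with MSH6, 0.418 with PMS1, 0.224 with PMS2, 0.207 with MSH3 and -0.100 with MGMT, where the medians over all detected genes were 0.048, 0.018, 0.028, 0.011 and 0.001. Without the 4 Hs lines it was 0.216 with MSH6 and 0.261 with PMS1, against 0.010 and 0.005 over all detected genes. The proliferation list had a median r of 0.464 with MSH6 and 0.422 with PMS1, and 0.214 and 0.274 without the 4 Hs lines. Such values were thus not particular to the mismatch repair list. Of the mismatch repair list, RFC2, RFC4, RFC5, RPA3, POLD1 and POLD3 had r of at least 0.6 with MSH6.

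The promoter windows were searched for words of the E2F factors, which drive S phase genes, because E2F2 was among the genes closest to MSH6. The words TTTGGCGC, TTTCCCGC, TTTCGCGC and TTTGCCGC were searched on both strands of the 300 bases around each RefSeq start, and 3.33% of 27303 promoters held at least 1. MSH3, MSH6 and PMS2 held at least 1, and PMS1 and MGMT none. Each word contains a CpG site, and these 3 windows hold 37, 39 and 24 such sites, against a median of 14 over all promoters. The share with a word among promoters equally rich in CpG sites was not computed. The MSH3 stretch holds TTTGGCGC and also, overlapping it, GCGCGAAA, which is TTTCGCGC on the other strand. Shown here is 1 word per gene in capitals, with 8 bases on either side (GRCh38.p14).
MSH3, chr5:80654537-80654560, plus strand: cggtcaagTTTGGCGCgaaattgt
MSH6, chr2:47783140-47783163, plus strand: cccccagaTTTCCCGCcagcagga
PMS2, chr7:6009134-6009157, minus strand: gaagtattTTTGCCGCcccgcccg
Of the 5 genes closest to MSH6, E2F2 also held an E2F word. A match describes the letters in this window and is not a measured site. With the proliferation score, r was 0.637 for MSH6, 0.282 for MSH3 and 0.156 for PMS2, which hold a word. It was 0.533 for PMS1 and -0.037 for MGMT, which hold none. Without the 4 Hs lines r was 0.301 for MSH6, 0.315 for MSH3, 0.025 for PMS2, 0.371 for PMS1 and 0.052 for MGMT. The part of the words in these r values was not tested.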

How the data were processed

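The deposited values are on a log2 scale and were made by the authors by RMA in Affymetrix Power Tools, per the submitters' processing notes, with no version given and no statement that the 58 arrays were normalized together. Genes were named with GEO's platform annotation and updated by gene ID to GRCh38.p14 symbols. Of 52377 probe sets, 35184 name 1 gene, 374 several and 16819 none, and the last groups were left out. Python 3.11.15, numpy 2.4.6, pandas 2.3.3 scipy 1.17.1 and matplotlib 3.10.9 were used. The members, lists and rules were chosen with earlier results of these data known.

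Levels were compared line by line. For SDs and correlations the 14 lines in 6 sets of reported common origin were averaged, which gave 50 units. For each member the 5 highest and 3 lowest Pearson r over detected genes are named, and of each pathway list the 3 most variable genes and every gene at background in 1 to 3 lines (there was none). Neighbours are the 5 nearest detected genes on either side in the RefSeq gene table. A score is the mean distance of a list's detected genes from their medians. The steps for low calls and correlations were tried on simulated independent normal values with planted signals. Real lines differ from such values, so this says nothing of error rates here. Sequences are from RefSeq. PCNA, NEIL1, PTPRE and the other neighbours named with a value were chosen after their values were seen.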

Additional observations from a re-analysis of the deposited data

How the results depend on the processing

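No paired analysis was possible because each line has 1 array and the labels define no groups. The count of lines with MGMT at background was 6 and lay between 5 and 7 over 7 alternatives, 5 with background at the 90th and 7 at the 99th viral percentile, where HS578T joined. The count of lines with low MGMT was 10 under both renormalizations, while the other 4 settings could not change it, since MGMT has 1 probe set and its limit of 3 deviations lies beyond 2 log2 units. MSH3, MSH6 and PMS2 had no line at background in any alternative. PMS1 had 12 and 58 lines at background with its 2 dimmest probe sets, whose SD was 0.92 and 0.33 against 0.54. At a threshold of 1 log2 unit 1 line, HS362T, was low in MSH6. Among units above the step, chosen after seeing the data and still holding MT3, SW527 and HCC1954, the SD of MGMT was 0.93. With the 99th percentile, genes at background in at least 1 line numbered 3 of the mismatch repair list, 5 of the alkylation list and 1 of the proliferation list, against 1, 2 and 0, counting undetected genes too. The r of MSH6 with PMS1 lay between 0.246 (without the 4 Hs lines) and 0.521 (above the step). The r of MSH3 with MGMT was 0.205 over all units and -0.021 above the step, and the median r of MSH6 with its neighbours lay between -0.046 and 0.225 (without the 4 Hs lines). No single-gene probe set is marked for cross-hybridisation, so that alternative equals the main setting.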
